A study of Mus musculus with 24 samples.

Results

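Hyaluronan is a long, unbranched sugar polymer of the extracellular matrix that binds water and is known to accumulate in the dense stroma of pancreatic tumours. Hyaluronan synthases (Has1, Has2 and Has3) make it at the plasma membrane, hyaluronidases (Hyal1 and Hyal2) and the hyaluronan-binding protein Cemip cut it into shorter chains, Cd44 is its main cell surface receptor, and Tnfaip6 transfers heavy chains of inter-alpha-inhibitor onto it. These 8 genes were selected by name from the 54532 genes of the count table and are described here across 24 libraries. All 8 were among the 19253 genes that passed the filter on low counts.

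The libraries came from mouse pancreatic tumours taken on day 24, 6 each from a control group given PBS (phosphate-buffered saline) and from groups named GEM, IGEL and LIGEL. The labels do not expand GEM, IGEL or LIGEL, and strain, tumour model and dose are not stated. The series title names losartan priming and a nanocarrier for chemo-immunotherapy, so the question taken up is whether tumours of the treated groups differed in the transcripts that make, cut and bind hyaluronan. Whether the 6 samples of a group were separate animals is not stated, and p-values therefore reflect only how these samples spread, in part perhaps for technical reasons.

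Library totals ran from 27.1 to 40.5 M counts (M, counts in units of 1e6). The sample titles say muscle, but the 10 skeletal muscle markers summed to 10.5 to 304 CPM (counts per 1e6 counts of the composition-corrected library total), with 0 to 6 of the 10 markers at a count of 0 in a library. The sum of 304 CPM was in IGEL replicate 4, and the next highest was 24.2 CPM in LIGEL replicate 6. The 7 markers of ductal and tumour epithelium, among them Krt8, Krt19 and Epcam, were above 0 in every library and summed to 558 to 1788 CPM in the 23 libraries other than PBS replicate 5. PBS replicate 5 stood apart, with 12 digestive enzyme transcripts of pancreatic acinar cells at 661186 CPM and 36.2% of its counts, against 49.99 to 179715 CPM in the other 23. The GEM, IGEL and LIGEL groups hold 6 libraries from columns with names that begin with A1, A2 or A3 (GEM replicates 1 to 3, IGEL replicate 1, LIGEL replicates 1 and 2), while PBS holds none. What the column names stand for is not stated, and these 6 libraries had a median of 437 CPM of acinar transcripts against 14446 CPM in the other 12 treated libraries.

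The upstream bases of Has1, Cd44 and Hyal1 are shown because Has1 and Cd44 varied together across libraries and Hyal1 had the smallest p of the 8 genes in LIGEL against PBS. They were read from the RefSeq promoter table (build GRCm38.p6), kept to the bases before the gene's annotated exons, and run 5′ to 3′ on the gene's own strand. The windows are chr17:17855206-17855438 on the minus strand for Has1, chr2:102901666-102901915 on the minus strand for Cd44 and chr9:107576700-107576926 on the plus strand for Hyal1. Capitals mark matches, on either strand, to 7 motifs. These are the TATA box (TATAAA), the GC box (GGGCGG), the AP-1 element (TGANTCA), the core of the hypoxia element (ACGTG), the E-box (CACGTG), the CCAAT box (CCAAT) and an NF-kappaB site (GGAATTTCC). A hypoxia core inside an E-box would count for both.
Has1: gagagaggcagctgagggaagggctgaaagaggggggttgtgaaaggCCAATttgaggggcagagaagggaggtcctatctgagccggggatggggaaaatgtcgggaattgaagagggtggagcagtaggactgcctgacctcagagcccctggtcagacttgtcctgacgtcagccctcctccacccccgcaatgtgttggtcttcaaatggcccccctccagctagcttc
Cd44: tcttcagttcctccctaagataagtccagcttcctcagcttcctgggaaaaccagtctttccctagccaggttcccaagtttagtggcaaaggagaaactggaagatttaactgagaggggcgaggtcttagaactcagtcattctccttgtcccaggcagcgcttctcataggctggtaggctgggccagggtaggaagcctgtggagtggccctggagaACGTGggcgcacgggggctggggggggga
Hyal1: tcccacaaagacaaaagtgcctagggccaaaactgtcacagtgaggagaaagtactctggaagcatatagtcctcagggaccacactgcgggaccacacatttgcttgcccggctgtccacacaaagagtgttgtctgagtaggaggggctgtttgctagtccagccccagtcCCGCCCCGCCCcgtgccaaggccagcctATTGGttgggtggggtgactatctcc
The 233 bases of Has1 held 1 match to CCAAT, which 32.4% of 32851 promoters held in a window of that length. The 250 bases of Cd44 held 1 match to ACGTG, present in 16.6% of promoters. The 227 bases of Hyal1 held 2 overlapping matches to GGGCGG, present in 29.4% of promoters, and 1 to CCAAT, present in 31.8%. Has1 and Cd44 shared none of the 7 motifs in these windows.

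Per kilobase of exon, Cd44 was by far the most abundant of the 8 transcripts. Its level was 69.7 ± 22.4 RPKM (CPM divided by exon length in kilobases, SD, n = 24), and it ranked the highest of the 8 genes in 24 of 24 libraries. Hyal2, a membrane-anchored hyaluronidase, came next at 11.5 ± 1.72 RPKM and held that place in 24 of 24 libraries. Has2, the main synthase of many mouse connective tissues, followed at 4.01 ± 1.399 RPKM and Has1 at 2.05 ± 0.969 RPKM. Hyal1, the lysosomal hyaluronidase (0.736 ± 0.301 RPKM), Tnfaip6 (0.570 ± 0.235 RPKM), Has3 (0.518 ± 0.103 RPKM) and Cemip (0.243 ± 0.102 RPKM) lay within a narrow range, and neighbours among Hyal1, Tnfaip6 and Has3 differed by less than their spread over libraries. Raw counts per library ranged from 728 to 29560 for Cd44 and from 11 to 64 for Tnfaip6, so counting error weighs most on Tnfaip6.

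**Figure D1:**
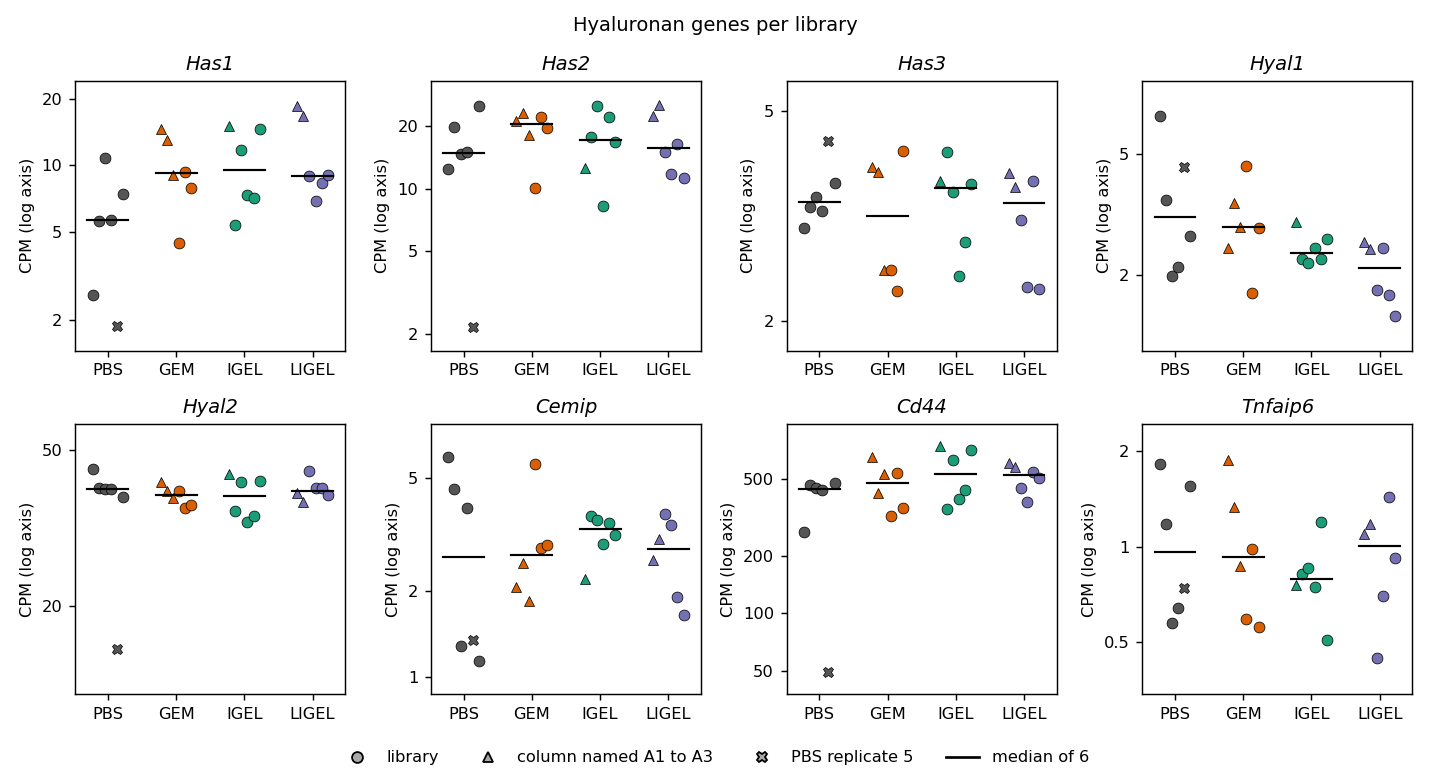
Each panel shows the CPM of a hyaluronan gene on a log axis in the 24 libraries by group, with a bar at the median of 6. Triangles mark the libraries with A1 to A3 columns and the cross marks PBS replicate 5, which is the lowest library for Has1, Has2, Hyal2 and Cd44. The groups overlap for all 8 genes.

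Has1 (chr17:17843323-17855205 on mm10, minus strand) was the synthase with the largest difference between groups, and it did not pass the test in any comparison. In PBS its level was 2.59, 5.62, 10.8, 5.67, 1.89 and 7.40 CPM in replicates 1 to 6. GEM libraries held 14.7, 13.1, 9.09, 4.48, 9.33 and 7.92 CPM. IGEL libraries held 15.2, 5.38, 11.8, 7.32, 7.12 and 14.7 CPM. The treated values overlapped those of PBS, and 5 of 6 libraries in both GEM and IGEL lay above the PBS median of 5.65 CPM. LIGEL libraries held 18.5, 16.7, 8.92, 6.92, 8.31 and 9.07 CPM. All 6 LIGEL libraries lay above the PBS median, and 2 of them, both with A1 to A3 columns, lay above every PBS library. So did 2 GEM libraries, both with A1 to A3 columns, and 3 IGEL libraries, of which replicate 1 has such a column and replicates 3 and 6 do not.

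In edgeR's quasi-likelihood test on all 24 libraries, the log2 fold difference of Has1 from PBS was 0.78 ± 0.38 (SE) in GEM, with a Benjamini-Hochberg adjusted p of 0.804. It was 0.85 ± 0.38 in IGEL (edgeR, adjusted p = 0.311) and 1.003 ± 0.38 in LIGEL (edgeR, adjusted p = 0.158). The 3 comparisons share the PBS libraries and are not independent of each other. In bulk tissue, fewer cells of a type and less RNA per cell cannot be told apart.

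The Has1 difference was smaller when the libraries with A1 to A3 columns were left out. In the remaining libraries Has1 was at 7.24 ± 2.49 CPM in GEM (SD, n = 3), 9.26 ± 3.84 CPM in IGEL (n = 5) and 8.31 ± 0.983 CPM in LIGEL (n = 4). The log2 fold difference in LIGEL against PBS was then 0.53 (edgeR, adjusted p = 0.633), that in GEM against PBS 0.32 (adjusted p = 1) and that in IGEL against PBS 0.67 (adjusted p = 0.538). The libraries with A1 to A3 columns held 14.5 ± 3.25 CPM of Has1 (n = 6) and the other 12 treated libraries 8.44 ± 2.73 CPM. With the 4 group means in the model, the term for the A1 to A3 columns was 0.87 ± 0.28 log2 for Has1 (edgeR, adjusted p = 0.201). When PBS replicates 1 and 5 were both left out, a setting chosen after seeing the data in which edgeR called 817 genes, it was 0.85 with an adjusted p of 0.0249.

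Has2 (chr15:56665627-56694539, minus strand) spread widely within every group and differed little between them. It overlaps its antisense transcript Has2os, which had 9 to 160 counts per library. Its level was 12.5, 19.7, 14.6, 15.1, 2.16 and 24.9 CPM in PBS replicates 1 to 6. In GEM it was 21.3, 23.2, 18.1, 10.1, 22.03 and 19.7 CPM. In IGEL it was 12.6, 17.6, 25.03, 8.28, 22.02 and 16.8 CPM. PBS replicate 5 was the lowest of all 24 libraries, and the other PBS values lay within the range of the treated ones. In LIGEL Has2 was at 22.5, 25.3, 15.04, 11.8, 16.5 and 11.2 CPM. The log2 fold difference from PBS was 0.36 ± 0.36 in GEM, 0.20 ± 0.36 in IGEL and 0.20 ± 0.36 in LIGEL (edgeR, adjusted p from 0.780 to 0.822). Leaving out PBS replicate 5 turned these to 0.12, -0.03 and -0.03.

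Has3 (chr8:106870242-106884566, plus strand), a synthase that is often described as making shorter chains, stayed within a narrow range. Its lowest, median and highest values were 3.004, 3.37 and 4.39 CPM in PBS, and 2.28, 3.16 and 4.203 CPM in GEM. They were 2.43, 3.57 and 4.19 CPM in IGEL and 2.30, 3.35 and 3.82 CPM in LIGEL. Its highest value was in PBS replicate 5, the library lowest for Has1 and Has2. Against PBS its log2 fold difference lay between -0.16 and -0.05, with 95% intervals from -0.56 to 0.35 over the 3 treated groups. Has3 overlaps the end of Chtf8 on the opposite strand, which had 483 to 4185 counts per library, and with no strandedness stated for the counting, reads there cannot be told apart.

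By RPKM, Has2 made up most of the synthase transcripts. It was the highest synthase in 22 libraries and Has3 the lowest in 23. PBS tumours had a Has2 share of 61.9 ± 16.6% of the summed RPKM (SD, n = 6) and GEM tumours of 63.1 ± 4.06%, followed by IGEL with 58.3 ± 11.996% and LIGEL with 57.4 ± 3.64%. The Has1 share was 23.5 ± 7.90% for PBS, 29.5 ± 4.37% for GEM, 33.6 ± 11.8% for IGEL and 35.3 ± 4.58% for LIGEL. These ranges overlap, as PBS replicate 3 had a Has1 share of 37.5% and IGEL replicate 2 of 19.8%. The exceptions to the order were IGEL replicate 1, where Has1 took 48.5% and Has2 43.1%, and PBS replicate 5, where Has3 took 42.6%. Summed synthase RPKM was 5.30 ± 2.26 for PBS, 7.16 ± 1.91 for GEM, 6.82 ± 1.73 for IGEL and 7.04 ± 2.46 for LIGEL, and was lowest at 1.62 in PBS replicate 5.

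**Figure D2:**
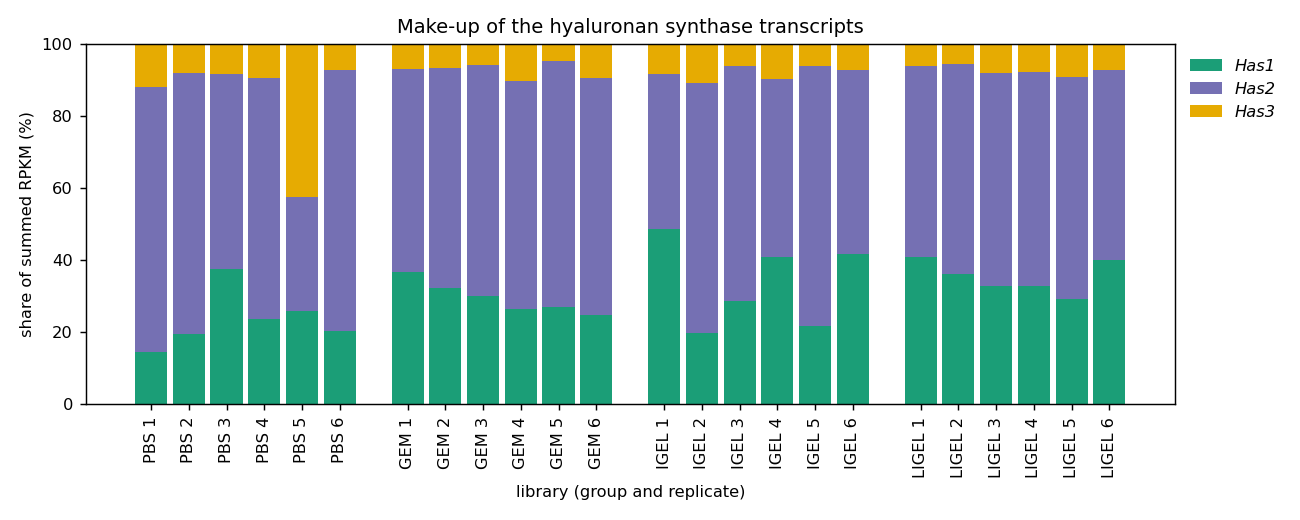
Bars give the share of summed RPKM taken by Has1, Has2 and Has3 in each of the 24 libraries, by group and replicate. Has2 takes the largest share in 22 libraries, Has1 in IGEL replicate 1 and Has3 in PBS replicate 5.

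Hyal1 (chr9:107576927-107581710, plus strand) was the gene of the 8 with the smallest p in LIGEL against PBS, with lower values in LIGEL, and it did not pass the test. In PBS it was at 6.66, 3.53, 1.996, 2.12, 4.53 and 2.69 CPM in replicates 1 to 6. In GEM it was at 2.46, 3.44, 2.88, 4.57, 1.75 and 2.86 CPM. In IGEL it was at 2.98, 2.27, 2.198, 2.46, 2.26 and 2.62 CPM. The IGEL libraries were the most alike and all 6 lay below the PBS median of 3.11 CPM, within the PBS range. In LIGEL Hyal1 was at 2.58, 2.44, 1.79, 2.45, 1.73 and 1.47 CPM. All 6 LIGEL libraries lay below the PBS median and 3 below every PBS library.

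The log2 fold difference of Hyal1 from PBS was -0.26 ± 0.27 in GEM (edgeR, adjusted p = 0.824) and -0.54 ± 0.27 in IGEL (adjusted p = 0.340). In LIGEL it was -0.79 ± 0.27 (edgeR, adjusted p = 0.137). The difference of LIGEL from GEM was -0.53 ± 0.27 and that of LIGEL from IGEL -0.25 ± 0.27, with 95% intervals that included 0. DESeq2 gave -0.80 in LIGEL against PBS with an adjusted p of 0.0481, a call in a comparison where it called 1229 genes and edgeR none. PBS replicates 1 and 5 were the highest PBS libraries for Hyal1. The value was -0.51 without PBS replicate 1 (edgeR, adjusted p = 0.292), -0.71 without PBS replicate 5 (adjusted p = 0.225) and -0.33 without both (adjusted p = 0.585). PBS replicate 1 also had the highest sum of fibroblast markers of the 24 libraries, 35481 CPM. Hyal1 overlaps Nat6 and Hyal3 on the same strand, so reads in the overlap may not all have been counted for Hyal1. It lies 4148 bases after the end of Hyal2 on chromosome 9.

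Hyal2 (chr9:107567945-107572779, plus strand) was the most even of the 8 genes once PBS replicate 5 was left out. It held 44.7, 39.9, 39.6, 39.7, 15.5 and 37.9 CPM in PBS replicates 1 to 6. The lowest, median and highest values were 35.4, 38.4 and 41.3 CPM in GEM and 32.7, 38.2 and 43.4 CPM in IGEL. They were 36.8, 39.3 and 44.2 CPM in LIGEL. PBS replicate 5 lay below all 23 others, which ran from 32.7 to 44.7 CPM. Without that library the SD within groups was 0.12 on the log2 scale, at percentile 4.07 of all genes tested, where the median gene had 0.36. With all 24 libraries the SD was 0.30 for Hyal2 and 0.31 for Has3. Hyal2 had a log2 fold difference from PBS of 0.07 ± 0.16 in GEM, 0.07 ± 0.16 in IGEL and 0.13 ± 0.16 in LIGEL, and without PBS replicate 5 the 95% intervals ran from -0.26 to 0.14 over the 3 groups.

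Cemip (chr7:83932857-84086502, minus strand), which is needed for hyaluronan breakdown by fibroblasts, varied more within PBS than between groups. PBS replicates 1 to 6 held 5.92, 4.58, 1.28, 3.91, 1.35 and 1.14 CPM. The lowest, median and highest values were 1.85, 2.68 and 5.58 CPM in GEM, 2.20, 3.31 and 3.66 CPM in IGEL and 1.65, 2.82 and 3.74 CPM in LIGEL. No treated library lay outside the PBS range. Cemip differed from PBS by a log2 fold difference of -0.04 ± 0.37 in GEM, 0.06 ± 0.37 in IGEL and -0.16 ± 0.37 in LIGEL (edgeR, adjusted p from 0.834 to 0.985).

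Cd44 (chr2:102811141-102901665, minus strand), the receptor, had higher means in the treated groups than in PBS, with differences that shrank when PBS replicate 5 was left out. PBS replicates 1 to 6 held 265, 466, 451, 441, 49.2 and 482 CPM. GEM libraries held 655, 422, 533, 320, 538 and 355 CPM, and IGEL libraries 748, 349, 632, 393, 442 and 710 CPM. LIGEL libraries held 608, 584, 450, 382, 548 and 510 CPM. In GEM and IGEL 3 of 6 libraries and in LIGEL 4 of 6 lay above every PBS library, and the rest lay within the PBS range. Against PBS Cd44 differed by 0.39 ± 0.34 log2 (GEM), 0.60 ± 0.34 (IGEL) and 0.52 ± 0.34 (LIGEL), with edgeR adjusted p from 0.377 to 0.807, and 0.15, 0.37 and 0.29 without PBS replicate 5. Cd44 is known to be spliced into many isoforms, which a count per gene does not separate.

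Tnfaip6 (chr2:52038009-52056686, plus strand), the heavy chain transferase, was the least counted of the 8 genes. PBS replicates 1 to 6 held 1.83, 1.18, 0.574, 0.643, 0.743 and 1.55 CPM. The lowest, median and highest values were 0.558, 0.927 and 1.87 CPM in GEM, 0.507, 0.791 and 1.2 CPM in IGEL, and 0.447, 1.01 and 1.43 CPM in LIGEL. The groups overlapped throughout. Against PBS the log2 fold difference was -0.07 ± 0.35 in GEM, -0.42 ± 0.35 in IGEL and -0.18 ± 0.35 in LIGEL (edgeR, adjusted p from 0.546 to 0.962), and IGEL differed from GEM by -0.35 ± 0.35.

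**Figure D3:**
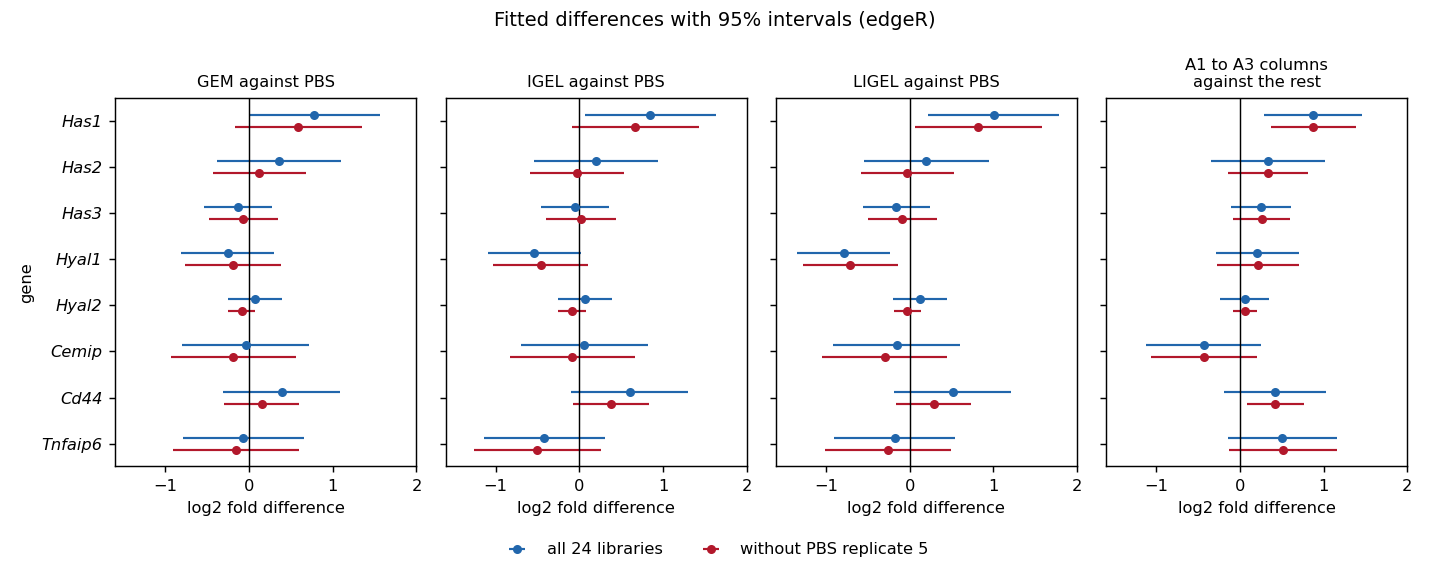
Points are log2 fold differences of the 8 hyaluronan genes and bars their 95% intervals from edgeR, for the 3 treated groups against PBS and for the A1 to A3 columns against the rest. Blue uses all 24 libraries and red leaves out PBS replicate 5, which moves Has2, Hyal2 and Cd44 toward 0 or across it in the comparisons with PBS and narrows their intervals.

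None of the 8 genes was called by edgeR at an adjusted p under 0.05 in any of the 6 comparisons between groups, where 0% of all genes tested were called. At an unadjusted p under 0.05, 0 of 8 passed in GEM against PBS, where 4.81% of all genes did. In IGEL against PBS 1 of 8 passed, Has1 (15% of all genes), and in LIGEL against PBS 2 of 8, Has1 with higher and Hyal1 with lower values (20.5% of all genes). None of the 8 passed in IGEL against GEM, LIGEL against GEM or LIGEL against IGEL, where 1.58%, 3.16% and 1.26% of all genes did. For the A1 to A3 columns 0 of 8 were called and 1 of 8, Has1, passed at an unadjusted p under 0.05, against 0.0935% and 14.2% of all genes. These shares are too close to the background to set the 8 genes apart. Without PBS replicate 5, edgeR called 0.0922% of all genes in IGEL against PBS, 0.886% in LIGEL against PBS and 2.4% for the A1 to A3 columns, and none of the 8 genes. Against PBS, the median log2 fold difference of the 8 genes was 0.02 for GEM, 0.06 for IGEL and -0.01 for LIGEL, beside -0.02, -0.02 and -0.03 over all genes.

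Across the 24 libraries the clearest relation among the 8 genes was between the synthase Has1 and the receptor Cd44. Pearson's r of log2 CPM was 0.83 (adjusted p = 0.00076) and Spearman's rho 0.84 (adjusted p = 0.00038, permutation tests over 76 relations). It was the single pair of 28 to pass by both measures. Without the 2 libraries farthest from the Has1 median, PBS replicates 1 and 5, r was 0.79, and with group means subtracted it was 0.78. Within the 18 libraries without A1 to A3 columns r was 0.85, and within the 6 with them 0.41. How many pairs among all genes pass was not computed. Both genes followed other genes more closely, Cd44 with Soat1 at r = 0.99 and Has1 with Slc20a1 at r = 0.96. Has1 and Cd44 also both ran against the acinar markers (r = -0.74 and -0.69). The part of those markers in the relation was not tested. The upstream windows of Has1 and Cd44 printed above shared none of the motifs searched. Only a few short motifs were searched in short windows, so whether the genes share a regulator was not tested.

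Pearson's r passed in 4 further pairs and Spearman's rho in none of them (adjusted p from 0.0551 to 0.458, permutation tests), and all 4 coefficients were smaller without PBS replicate 5. For Has2 and Cd44 r was 0.82 with all libraries and 0.40 without that library. For Hyal2 and Cd44 it was 0.84 and 0.19. Has1 and Has2 gave 0.66 and 0.43, and Has1 and Hyal1 gave -0.53 and -0.44.

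Markers of other cells moved with several of the genes. Has1 was lower where the 10 fibroblast markers (Col1a1, Dcn, Pdgfra and others) were higher, with r = -0.66 and rho = -0.71 (adjusted p = 0.00684 and 0.00365, permutation tests). Without the 2 libraries farthest from the fibroblast median it was -0.52, and within the 18 libraries without A1 to A3 columns -0.58. Has1 also ran against the markers of acinar cells (r = -0.74), mesothelium (r = -0.75) and epithelium (r = -0.62). The 6 mesothelium markers were close to the floor, with sums of 4.20 to 32.9 CPM and up to 3 markers at a count of 0 in a library. Cd44 ran against acinar markers (r = -0.69, rho = -0.83) and mesothelium (r = -0.69). Cemip ran the other way, rising with markers of fibroblasts (r = 0.64), macrophages (r = 0.64) and T cells (r = 0.63). Within the 6 libraries with A1 to A3 columns Cemip and the fibroblast markers gave r = -0.02, and within the other 18 libraries 0.76. Hyal1 rose with the epithelial markers (r = 0.62, rho = 0.54), and r was 0.45 without PBS replicate 1 and GEM replicate 6. These 10 relations passed by both measures (adjusted p up to 0.00854 for r and 0.0443 for rho, permutation tests). Without the 2 libraries farthest from each marker list's median the negative ones ran from -0.71 to -0.52 and the positive ones from 0.45 to 0.63. Within the 18 libraries without A1 to A3 columns they ran from -0.73 to -0.58 and from 0.63 to 0.76, and within the 6 with them from -0.86 to -0.18 and from -0.02 to 0.76. Cd44 passed by Spearman's rho alone against the markers of fibroblasts (rho = -0.71, r = -0.39) and epithelium (rho = -0.56, r = -0.49; adjusted p = 0.00365 and 0.0395 for rho and 0.223 and 0.0788 for r, permutation tests). For Cd44 and the fibroblast markers r was -0.81 without PBS replicate 5, -0.27 without IGEL replicate 1 and PBS replicate 1, -0.85 within the 6 libraries with A1 to A3 columns and -0.24 within the other 18. The part of these cells in the differences between groups was not tested, apart from a covariate for the acinar markers, with which Has1 in LIGEL against PBS was 0.78 log2 (edgeR, adjusted p = 0.186).

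**Figure D4:**
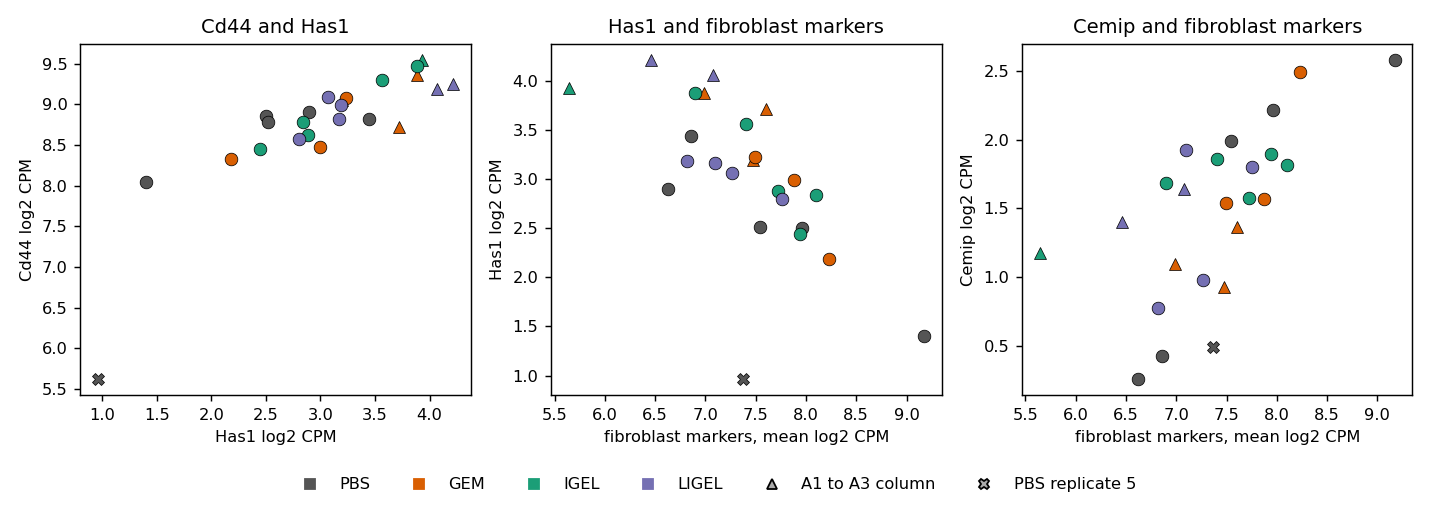
Each point is a library, coloured by group, with triangles for A1 to A3 columns and a cross for PBS replicate 5, and all axes are log2 CPM. Has1 and Cd44 rise together (r = 0.83), Has1 is lower where the mean of the fibroblast markers is higher (r = -0.66) and Cemip is higher there (r = 0.64).

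**Figure D5:**
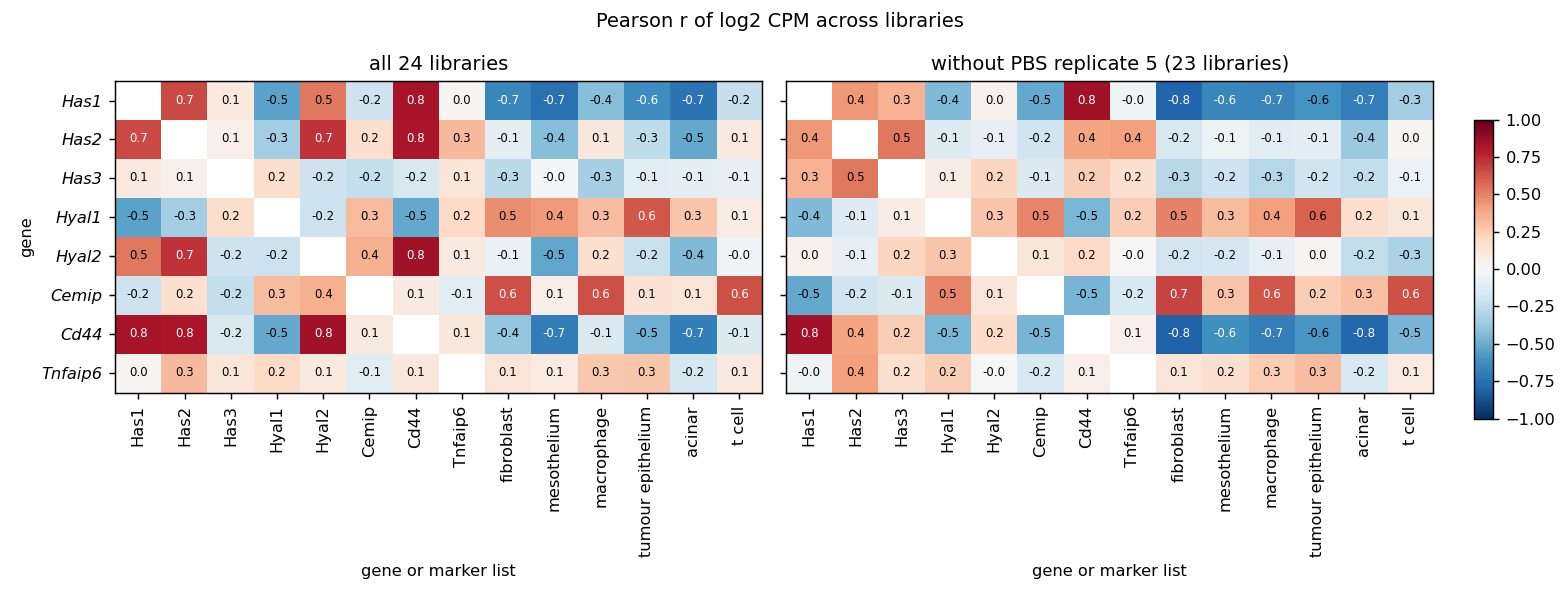
Cells give Pearson's r of log2 CPM for each hyaluronan gene against the other hyaluronan genes and 6 marker lists, with all 24 libraries on the left and without PBS replicate 5 on the right. Has1 with Cd44 stays at 0.84 without that library, while Has2 and Hyal2 with Cd44 drop to 0.40 and 0.19.

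Among 13138 genes, the transcripts whose log2 CPM followed each hyaluronan gene most closely over the 24 libraries differed from gene to gene. Cd44 was followed by Soat1 (r = 0.99), Rtn4 and Map1b, all still above 0.96 without PBS replicate 5. Has1 was followed by Slc20a1 (r = 0.96), Sestd1 (0.95) and AC160637.1 (0.94). Cemip was followed by Sparc (r = 0.88), which encodes a collagen-binding matrix protein, Olfml2b and Col23a1, a collagen chain. Hyal1 was followed by Gadd45b (r = 0.88), Gga2 and Tyro3. Has2 was followed by Tpm4 (r = 0.91), Egr2 and Timp1, and without PBS replicate 5 these fell to 0.72, 0.71 and 0.63. Hyal2 was followed by Hspa8 (r = 0.94, and 0.53 without that library), Emp1 and Vsp35l. Has3 with Cdk11b (r = 0.73), Fam129c and Cox17, and Tnfaip6 with Pigx (r = 0.66), Cyp20a1 and Stx7, had the loosest matches.

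Other genes of hyaluronan handling were taken as lists, and none of them was called by edgeR with all 24 libraries. Of the 9 enzymes that supply the sugar nucleotides, 8 had higher values in GEM, 7 in IGEL and 6 in LIGEL than in PBS, and 1 passed at an unadjusted p under 0.05, Nagk in LIGEL (0.27 ± 0.11 log2, adjusted p = 0.171, edgeR). That is 11.1% of the 9 in LIGEL against PBS, below the 20.5% of all genes. Higher values were found for 8951, 9069 and 8950 of all 19253 genes tested in GEM, IGEL and LIGEL against PBS. Nagk encodes the kinase that salvages N-acetylglucosamine. Of the 5 other breakdown genes tested, 2 had higher and 3 lower values in each treated group. Tmem2, a cell surface hyaluronidase related to Cemip, had 0.32, 0.41 and 0.40 log2 in GEM, IGEL and LIGEL against PBS, with no adjusted p under 0.354.

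Among the 7 other receptors, Hmmr had the smallest p in LIGEL against PBS, and Layn in IGEL against PBS. Hmmr is a hyaluronan-binding protein that also acts on the mitotic spindle. Its lowest, median and highest values were 8.85, 88.3 and 139 CPM in PBS, 44.9, 62.0 and 82.7 CPM in GEM, 40.2, 52.2 and 68.0 CPM in IGEL and 36.4, 45.7 and 58.3 CPM in LIGEL. PBS replicate 5 was the library at 8.85 CPM, and the other 5 PBS libraries ran from 70.8 to 139 CPM. With all libraries the log2 fold difference was -0.63 ± 0.33 in IGEL and -0.89 ± 0.34 in LIGEL (edgeR, adjusted p = 0.361 and 0.158). Without PBS replicate 5 Hmmr fell by 0.87 in IGEL (adjusted p = 0.04995) and by 1.13 in LIGEL (adjusted p = 0.00837), and both calls were lost when the libraries with A1 to A3 columns were left out as well, with differences of -0.80 and -0.98 (adjusted p = 0.111 and 0.0774). Leaving out PBS replicates 1 and 5 was a setting chosen after seeing the data. There edgeR called 119, 692 and 521 genes in GEM, IGEL and LIGEL against PBS, and 0 in each with all libraries. Hmmr was called in all 3 groups in that setting, at -0.77 in GEM against PBS (edgeR, adjusted p = 0.0454). It was at -0.98 in IGEL against PBS (edgeR, adjusted p = 0.00386) and -1.23 in LIGEL against PBS (adjusted p = 0.000857). Layn, a transmembrane hyaluronan receptor, had 0.39 ± 0.13 log2 in IGEL against PBS (adjusted p = 0.306), and Tlr4, a receptor that hyaluronan fragments can engage, 0.29 ± 0.14 in LIGEL (adjusted p = 0.242).

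Of the 14 tested proteins that bind or organise hyaluronan in the matrix, 12 had lower values in GEM, 12 in IGEL and 14 in LIGEL than in PBS, with median log2 fold differences of -0.40, -0.36 and -0.81. Of all 19253 genes tested, 10302, 10184 and 10303 had lower values in the same comparisons. At an unadjusted p under 0.05 the list had 1, 1 and 3 genes (7.14%, 7.14% and 21.4%), beside 4.81%, 15% and 20.5% of all genes. For the A1 to A3 columns against the rest, 11 of the 14 had lower values, the median was -1.03 and 7 passed at an unadjusted p under 0.05 (50% against 14.2% of all genes). Lower values were found there for 9959 of the 19253 genes. The treated groups hold the A1 to A3 libraries and PBS holds none, and their part in the differences from PBS was not tested for the list. Itih5, a heavy chain of the inter-alpha-inhibitor family, had the smallest p of the list in all 3 groups. Its lowest, median and highest values were 3.96, 10.5 and 97.7 CPM in PBS, 6.55, 9.80 and 13.1 CPM in GEM, 2.73, 7.32 and 10.6 CPM in IGEL and 2.17, 3.15 and 10.3 CPM in LIGEL. The log2 fold difference was -2.70 ± 0.66 in LIGEL against PBS (edgeR, adjusted p = 0.124) and -2.24 ± 0.65 in IGEL (adjusted p = 0.306). DESeq2 gave adjusted p-values of 0.00252 and 0.0435. Once PBS replicates 1 and 5 were left out the value was -0.62 in LIGEL against PBS (edgeR, adjusted p = 0.594) and -0.18 in IGEL against PBS (adjusted p = 0.922). Hapln1, a link protein, was at 0 to 0.0506 CPM in the 6 libraries with A1 to A3 columns and at 0 to 1.01 CPM in the other 12 treated ones (edgeR, adjusted p = 0.0503 with all libraries and 0.0201 without PBS replicate 5).

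Among the 9 genes that act on Cd44, the largest differences were in the epithelial splicing regulators Esrp1 and Esrp2, which are known to direct Cd44 splicing. Esrp1 was at a median of 6.01 CPM in PBS, 11.9 CPM in GEM, 5.11 CPM in IGEL and 1.27 CPM in LIGEL, where it ranged from 0 to 5.79 CPM. In PBS it ranged from 1.15 to 88.0 CPM, so the groups overlapped. The log2 fold difference in LIGEL against PBS was -3.80 ± 1.18 for Esrp1 (edgeR, adjusted p = 0.127) and -3.60 ± 1.3 for Esrp2 (adjusted p = 0.146). The fit compares group means, and the PBS mean of Esrp1 includes the library at 88.0 CPM. At an unadjusted p under 0.05, 1 of the 9 genes passed with higher and 2 with lower values in LIGEL against PBS. That is 33.3%, beside 20.5% of all genes. In GEM and IGEL against PBS 0% passed, beside 4.81% and 15%. Adam17, a protease that sheds surface proteins, had 0.37 ± 0.16 log2 in LIGEL (adjusted p = 0.203).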

How the data were processed

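The authors deposited raw read counts per gene, 1 column per library. Per the submitters' processing notes, HISAT2, featureCounts of Subread and mm10 were used. Their versions, the annotation release and the strandedness are not stated there. The table lists 54532 genes, of which 54409 identifiers are in GENCODE mouse M21 and 53462 have identical coordinates.

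The tests used edgeR 4.0.16 in R 4.3.3 with filterByExpr (minimum count 10, minimum total 15), TMM factors, and a quasi-likelihood fit with a mean per group over all 24 libraries. A Benjamini-Hochberg adjusted p under 0.05 made a call. The A1 to A3 columns were tested as an added term. CPM used TMM-scaled totals, RPKM the table's exon length, and log2 CPM a prior count of 2. Correlations used 100000 permutations, with a smallest possible p of 1e-05, and Benjamini-Hochberg adjustment. The fit was tested on simulated data. DESeq2 1.42.0 and other settings were alternatives. The members, gene lists and tests were chosen with earlier results of these data known. All 8 hyaluronan genes, up to 4 genes per list and 3 look-alikes per gene were named by rule.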

Additional observations from a re-analysis of the deposited data

Results flagged for a closer look

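With 6 libraries in each group, 32 combinations of a hyaluronan gene and a group were examined for a library far from the rest of its group, and 2 were found. Such a gap arises by chance in about 1 in 20 groups. Hyal2 in PBS replicate 5 was at 15.5 CPM, below the other 5 PBS libraries, which ran from 37.9 to 44.7 CPM. That library also held 661186 CPM of acinar transcripts. Cemip in GEM replicate 4 was at 5.58 CPM, above the other 5 GEM libraries, which ran from 1.85 to 2.90 CPM. GEM replicate 4 had 22873 CPM of fibroblast markers, the highest value in GEM, and their part in the Cemip value was not tested.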

How the results depend on the processing

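Of 388 fitted differences of a hyaluronan gene under settings other than leaving out 1 library, 355 kept their sign and their side of the threshold, 31 turned sign and 2 became calls; of 840 leaving out 1 library, 815 were kept, 25 turned sign and none became a call. The cause of these changes was not tested. The 2 calls were Hyal1 in LIGEL against PBS with DESeq2 (1 gene) and Has1 for the A1 to A3 columns against the rest without PBS replicates 1 and 5 (1 gene). Hmmr in IGEL and LIGEL became calls without PBS replicate 5 and, with GEM, without PBS replicates 1 and 5, Hapln1 did so for the A1 to A3 columns, and Itih5 in IGEL and LIGEL with DESeq2.

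The number of all genes called moved more than any hyaluronan gene. Without PBS replicates 1 and 5 GEM against PBS had 119 calls, IGEL against PBS 692, LIGEL against PBS 521, and there were 817 for the A1 to A3 columns against the rest. DESeq2 called 85 genes in IGEL against PBS, 1229 in LIGEL against PBS and 749 for the A1 to A3 columns. With the acinar covariate 7 genes were called in LIGEL against PBS and 0 for the A1 to A3 columns, where library totals and leaving out the 3 libraries whose columns end in _2 also gave 0. Leaving out 1 library gave 0 to 18 genes in IGEL against PBS, 0 to 173 in LIGEL against PBS and 0 to 468 for the A1 to A3 columns. Replicate numbers did not pair the samples: over 36 same-numbered pairs the correlation of deviations ran from -0.59 to 0.71, 14 exceeded 0.1, and 6 of 24 libraries correlated best with their own number. The replicate block gave 55 genes for the A1 to A3 columns and changed no call of a hyaluronan gene.

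Values that turned sign are given here in log2. In GEM against PBS, Cemip was 0.0044 with library totals, 0.30 without the A1 to A3 libraries, 0.19 without the _2 columns, 0.14 with a term for the A1 to A3 columns, 0.018 with the acinar covariate and 0.063 with the replicate block, and Tnfaip6 was 0.023 with library totals. In IGEL against PBS, Has3 was 0.091 with library totals and Hyal2 -0.0016 without the A1 to A3 libraries. In LIGEL against PBS, Has3 was 0.0030 with library totals, Cemip 0.0063 with the A1 to A3 term and Has2 -0.14 without the A1 to A3 libraries. In IGEL against GEM, Tnfaip6 was 0.20 without those libraries and 0.21 without PBS replicate 5 as well. For the A1 to A3 columns against the rest, the replicate block gave -0.11 for Hyal1 and -0.23 for Hyal2, and the acinar covariate -0.090 for Hyal2 and -0.070 for Cd44.

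Both settings chosen after seeing the data turned further signs. Without PBS replicate 5 and the A1 to A3 libraries, GEM against PBS gave -0.016 for Has2, -0.13 for Hyal2, 0.17 for Cemip and -0.064 for Cd44, IGEL against PBS gave -0.13 for Hyal2, and LIGEL against PBS gave -0.34 for Has2. Without PBS replicates 1 and 5, GEM against PBS gave 0.19 for Hyal1, -0.056 for Hyal2, 0.10 for Cemip and 0.055 for Tnfaip6, IGEL against PBS gave -0.14 for Has2 and -0.065 for Hyal2, and LIGEL against PBS gave -0.14 for Has2.

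Leaving out 1 library at a time moved these across 0. In GEM against PBS the values ran from -0.42 to 0.017 for Hyal1, from -0.091 to 0.14 for Hyal2, from -0.32 to 0.26 for Cemip and from -0.32 to 0.14 for Tnfaip6. In IGEL against PBS the values ran from -0.028 to 0.41 for Has2, from -0.12 to 0.029 for Has3, from -0.088 to 0.14 for Hyal2 and from -0.11 to 0.36 for Cemip. In LIGEL against PBS the values ran from -0.026 to 0.41 for Has2, from -0.027 to 0.20 for Hyal2, from -0.33 to 0.15 for Cemip and from -0.33 to 0.032 for Tnfaip6. For the A1 to A3 columns against the rest the values ran from -0.013 to 0.094 for Hyal2.

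Within the 6 A1 to A3 libraries r turned to -0.58 for Has2 with Cd44, to -0.018 for Cemip with fibroblast markers, to 0.12 for Hyal2 with mesothelium markers and to 0.22 for Has2 with acinar markers. By raw counts in place of RPKM, Has2 took 56.6% of the synthase counts over 24 libraries. With library totals the median difference over all genes rose to 0.10 for LIGEL against PBS. Tnfaip6, Has3, Cemip and Hyal1 had at most 64, 168, 201 and 226 counts in a library. In LIGEL against PBS the SE was 0.20 log2 for Has3 and 0.34 for the far more counted Cd44. The part of low counts in what differences could be seen was not tested.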
